A study of Mus musculus with 20 samples.

Results

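The miR-30 family was followed in the left ventricles of mouse hearts under pressure overload. Its members were the 7 mouse miRNA probes named mmu-miR-30a, mmu-miR-30b, mmu-miR-30c, mmu-miR-30d, mmu-miR-30e, mmu-miR-30a*, and mmu-miR-30e*, taken by name from the 1086 mouse miRNAs on the array, and all 7 were among the 928 that could be tested. The hearts were those of male C57BL/6J mice operated on at 8 weeks of age, either by transverse aortic banding (TAB), which narrows the aorta and loads the left ventricle, or by a sham operation. Hearts were collected 3, 5, 7, 14, or 28 days later. Each surgery and day had 2 arrays of Cy5-labelled total RNA, which according to the methods are technical replicates. The number of hearts behind an array is not stated in the labels. Their averages gave 5 TAB and 5 sham samples, 1 for each day, and values by day are given in that order throughout. Levels below are log2 intensities after quantile normalization across the 20 arrays.

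MiRNAs are short RNAs that pair through their seed, a stretch near the 5′ end, with messenger RNAs and lower the output of those messages. A miRNA hairpin yields a pair of strands, and the one that was found less often at first was named with a star. The miR-30 family is abundant in heart muscle and is known from cultured heart cells, together with miR-133, to act on the message of connective tissue growth factor, a protein that promotes scarring.

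The strands below show how the members relate, with the seed (bases 2 to 8) in capitals. Sequences come from RefSeq on build GRCm38.p6, which held 5 of the 7 members. The 2 star strands of the miR-30c hairpins are shown as well because their levels bear on miR-30c.
mmu-miR-30a: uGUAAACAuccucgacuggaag
mmu-miR-30e: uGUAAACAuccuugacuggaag
mmu-miR-30c: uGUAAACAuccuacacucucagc
mmu-miR-30a*: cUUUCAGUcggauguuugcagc
mmu-miR-30e*: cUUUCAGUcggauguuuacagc
mmu-miR-30c-1*: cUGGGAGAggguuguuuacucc
mmu-miR-30c-2*: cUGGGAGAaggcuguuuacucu

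The named strands carried the seed GUAAACA, miR-30a* and miR-30e* the seed UUUCAGU, and the star strands of miR-30c the seed UGGGAGA. Counted from the 5′ end, miR-30a and miR-30e differed by the single substitution C13U, and miR-30a* and miR-30e* by G18A. How far the probe of one also bound the other was not tested. miR-30c shared its first 12 bases with miR-30a and with miR-30e and differed after them.

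The genes of the family lie in 3 clusters. Mir30a (chr1:23272269-23272339, plus strand) and Mir30c-2 (chr1:23291701-23291784, plus strand) lie 19361 bases apart and overlap no other gene of the RefSeq table. Mir30c-1 (chr4:120769534-120769622, minus strand) and Mir30e (chr4:120772606-120772697, minus strand) lie 2983 bases apart within the span of Nfyc, which encodes a subunit of a transcription factor. Mir30e also overlaps Mir30f, another miRNA gene of the RefSeq table. Mir30b and Mir30d are neighbours. The mature miR-30c of both of its hairpins has the same sequence, so its probe belongs to the miR-30a cluster and the miR-30e cluster at once.

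All 7 members were found, that is, had at least 2 of 3 spots without a negative flag, on all 20 arrays. Median raw intensities of the 5 named strands lay between 738 and 4151, and those of miR-30a* and miR-30e* between 160.5 and 182.5, against medians of 65 to 74 for empty spots. The brightest spot of any member read 7600. TAB arrays were dimmer without exception, with 75th percentiles of 180 to 288 against 303 to 444 in sham, so the scaling between arrays matters for each level below. All 6 heart muscle markers were found on all 20 arrays, as the tissue label would have it. This does not set heart muscle apart, since the 4 fibroblast and 4 vessel markers were also found on all 20. After quantile normalization 2 of the 6 were raised in TAB, miR-208b (1.18) and miR-499 (0.49), where 19.3% of all miRNAs were raised. Of other markers tested, 3 of 4 of white blood cells, 2 of 3 of red blood cells, 3 of 4 of fibroblasts, and 1 of 4 of vessels were raised, beside the same 19.3%. Among those raised, miR-142-5p of white blood cells was found on 7 TAB and 0 sham arrays. miR-144 of red blood cells was found on 5 TAB and 0 sham arrays. The sham levels of both are therefore those of flagged spots. The mean level of the fibroblast markers was 9.87 to 10.18 in TAB and 8.17 to 8.63 in sham, and that of the white blood cell markers 7.31 to 7.75 and 6.85 to 7.12. The corresponding means were 7.96 to 8.28 and 7.65 to 8.04 for red blood cells, 10.52 to 11.11 and 10.31 to 10.79 for vessels, and 11.83 to 12.53 and 11.67 to 12.31 for heart muscle. miR-122 of the liver was found on 3 of 10 TAB and 10 of 10 sham arrays. Of the brain markers, miR-9 was found on 2 TAB and 5 sham arrays and miR-124 on none. Of 4 epithelial markers, miR-200b was found on 3 TAB and 2 sham arrays, miR-200c and miR-141 each on 1 sham array, and miR-429 on none. None of these 4 passed the test. The part of these cell types in the results was not tested. In such tissue RNA, a change in the number of cells of a type and a change in RNA per cell cannot be told apart.

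The first comparison asked which members differed between TAB and sham over the 5 days. miR-30b and miR-30c were raised, miR-30a* and miR-30e* were raised by less (with differences below 0 under 2 of the other scalings), and miR-30a, miR-30d, and miR-30e did not pass the test. No member was lowered. Thus 4 of 7 members were raised by limma at an adjusted p below 0.05, where 19.3% of all 928 miRNAs were raised and 21.8% lowered. The median difference was 0.33 over the 7 members and -0.02 over all miRNAs. These medians lay closer together under other scalings. They were 0.57 and 0.40 at the 75th percentile scaling, 0.41 and 0.24 with spike-in scaling, and -0.07 and -0.25 without scaling. With a quantile target for each surgery they were -0.08 and -0.25. For the 4 raised members TAB was above sham on all 5 days, which a call made on these same days favours. The share of all miRNAs above sham on all 5 days is not given. The TAB and sham samples of 3 of the 4 did not overlap, where 15.9% of all miRNAs had every TAB sample above every sham sample.

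miR-30b, from the cluster with miR-30d, differed most in the family. Its levels in order of day were 10.31, 10.25, 10.24, 10.18, and 10.36 in TAB. In sham they were 9.19, 9.20, 8.85, 9.48, and 9.03. The TAB samples lay close together and all above the sham samples, of which day 14 was highest. The mean rose from 9.15 ± 0.23 (SD, n = 5) to 10.27 ± 0.07 (SD, n = 5), a log2 difference of 1.11 ± 0.10 (SE) or 2.17-fold (limma, adjusted p = 0.00197), which ranked 15 of 928 by fold. SD and SE include changes over time, since each sample is from another day. The difference stayed above 0 in all 18 alternative settings, from 0.37 without any scaling (adjusted p = 0.0721, the only setting in which limma did not call it) to 1.22 without day 14.

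miR-30c, the product of both miR-30c hairpins, followed. Its TAB levels in order of day were 10.66, 10.09, 10.70, 10.24, and 10.61. Its sham levels were 9.33, 9.92, 9.39, 10.02, and 9.37. The groups did not overlap, but at days 5 and 14 they were near each other. The mean rose from 9.60 ± 0.33 (SD, n = 5) to 10.46 ± 0.27 (SD, n = 5), or 1.81-fold (0.86 ± 0.22, SE; limma, adjusted p = 0.0276). The 2 sham arrays differed by 0.78 at day 14 (10.41 and 9.63) and at day 5 (10.31 and 9.53), the widest gaps between repeated arrays in the family. The call was lost without day 3, 7, or 28 (adjusted p of 0.0850, 0.0882, and 0.0829) and without the second replicate of each pair (0.105). It was also lost without scaling (0.137, adjusted p = 0.610) and with a quantile target for each surgery (0.139, adjusted p = 0.603), where the difference was smallest. The difference kept its sign in all 18 settings, up to 1.02.

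The star strands miR-30a* and miR-30e* were raised after quantile normalization, by differences close to each other. For miR-30a*, TAB levels were 7.87, 7.50, 7.54, 7.66, and 7.90. Its sham levels were 7.20, 7.34, 7.26, 7.57, and 7.22, so that the highest sham sample, day 14, reached into the TAB range. The difference was 0.38 ± 0.11 (SE), or 1.30-fold (limma, adjusted p = 0.0356). For miR-30e*, TAB levels were 7.55, 7.33, 7.54, 7.44, and 7.62, and sham levels were 7.07, 7.19, 7.15, 7.32, and 7.10. These groups did not overlap, by a margin of less than the gap between repeated arrays, and the difference was 0.33 ± 0.08 (SE), or 1.26-fold (limma, adjusted p = 0.0185). Both differences turned below 0 without scaling (-0.0497 and -0.0737) and with a quantile target for each surgery (-0.0559 and -0.0784). Leaving out a day moved the adjusted p between 0.0260 and 0.0993 for miR-30a* and between 0.0143 and 0.0656 for miR-30e*. The call of miR-30a* was lost without day 3, 5, 7, or 28 and without the second replicates (0.107), and that of miR-30e* without day 3, 7, or 28. Both calls were also lost with spike-in scaling (0.122 and 0.139).

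miR-30a, miR-30d, and miR-30e changed sides between days, with TAB above sham on 3 of 5 days each. miR-30a had TAB levels of 11.77, 11.26, 11.76, 11.54, and 11.77 and sham levels of 11.59, 11.68, 11.26, 11.74, and 11.36. The groups covered almost the same range, and the difference was 0.10 ± 0.15 (SE; 95% confidence interval -0.27 to 0.46; limma, adjusted p = 0.632). miR-30d had TAB levels of 12.35, 11.75, 12.11, 11.92, and 12.01 and sham levels of 12.11, 12.01, 11.80, 11.97, and 11.68. Its difference was 0.11 ± 0.10 (SE; interval -0.13 to 0.36; adjusted p = 0.407). miR-30e had TAB levels of 11.53, 10.99, 11.52, 11.32, and 11.68 and sham levels of 11.17, 11.74, 11.34, 11.50, and 11.25. The day 5 samples were the lowest in TAB and the highest in sham, and the difference over days was 0.01 ± 0.18 (SE; interval -0.43 to 0.45; adjusted p = 0.982). A p that misses the threshold does not show that these members were unchanged, and the intervals give the sizes that remain possible in this setting.

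**Figure D1:**
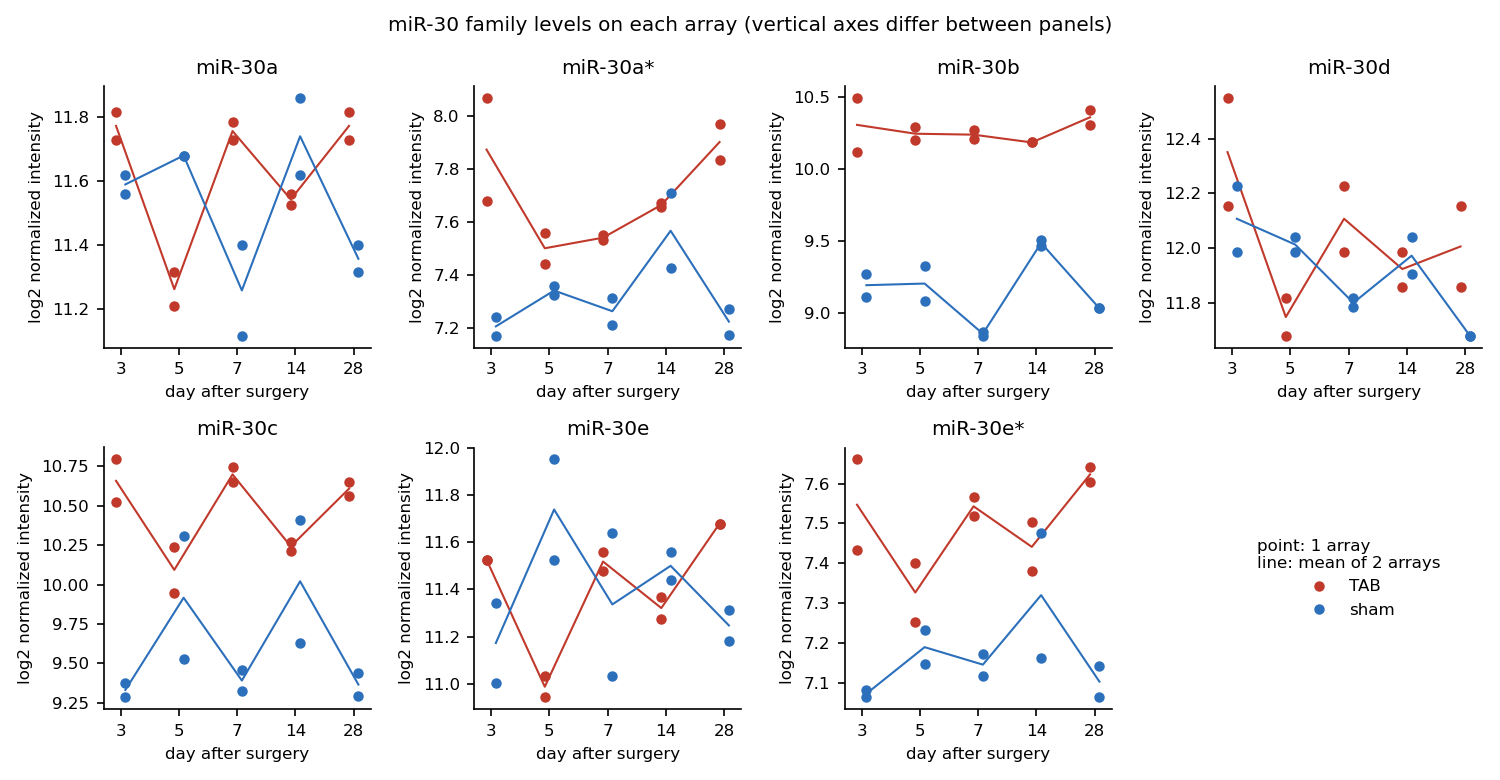
Log2 normalized intensity (vertical axis, its range differs between panels) of each member against the day after surgery. Points are single arrays (TAB red, sham blue) and lines join the means of the 2 arrays. The TAB and sham lines of miR-30b stay apart at every day, from 10.18 to 10.36 against 8.85 to 9.48, whereas those of miR-30a, miR-30d, and miR-30e cross.

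The second comparison asked whether members of the 3 clusters differed from each other in their response. For 13 pairs, the log2 difference between the members was taken within each sample, which removes a factor shared by all probes of an array, and TAB was compared with sham by an exact permutation test over all ways to split the 10 samples into groups of 5. The smallest p this test can give is 0.00794. Levels of different probes were not compared as such. A total of 7 of the 13 pairs passed after adjustment over the 13 pairs. The splits do not keep the pairing of TAB and sham by day. With labels exchanged only within days 0 pairs passed, but that test cannot decide, since its smallest p is 0.0625.

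Within each cluster, the probes of the neighbouring genes differed in their response. miR-30b rose relative to its neighbour miR-30d by 1.00 on the log2 scale (exact permutation p = 0.00794, adjusted p = 0.0147), with daily values of 0.87, 1.31, 1.08, 0.75, and 1.00. In the cluster of Mir30c-1 and Mir30e, miR-30c rose relative to miR-30e by 0.85 (same exact p), with 0.97, 0.93, 1.13, 0.40, and 0.81 at the 5 days. In the cluster of Mir30a and Mir30c-2, miR-30a fell by 0.76 relative to miR-30c (same exact p), with -1.14, -0.59, -0.81, -0.42, and -0.83. The sign was the same on all 5 days in each of these pairs, and day 14 gave the smallest value. Which of its hairpins the change of miR-30c came from cannot be told apart with this probe, so only the cluster of miR-30b and miR-30d was compared through probes of its own members alone.

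All 6 pairs that set miR-30b or miR-30c against miR-30a, miR-30d, or miR-30e passed, with sizes from 0.74 for miR-30c and miR-30d to 1.11 for miR-30b and miR-30e. None of the 4 other pairs of named strands passed. This grouping follows the members called in the first comparison on the same samples. The split of the pairs is therefore not separate support for it. miR-30a and miR-30d differed in their response by -0.02 (adjusted exact p = 0.817), miR-30a and miR-30e by 0.09 (0.490), and miR-30d and miR-30e by 0.11 (0.490), each with daily values on both sides of 0. miR-30b exceeded miR-30c by 0.26 (0.183), with daily values from -0.21 to 0.87. With 5 samples a surgery, these p-values do not show that the members responded alike.

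The sign of these 6 pairs was kept in all 16 alternative settings, but their size depended on the normalization. A factor shared by an array cancels in a difference within a sample, so the 75th percentile, spike-in scaling, and no scaling give the same result, which counts once. There, 8 of the 13 pairs passed. The difference in response was then -0.69 in place of -1.02 for miR-30a and miR-30b, -0.45 in place of -0.76 for miR-30a and miR-30c, and 0.46 in place of 0.74 for miR-30c and miR-30d. It was 0.69 in place of 1.00 for miR-30b and miR-30d, 0.81 in place of 1.11 for miR-30b and miR-30e, and 0.57 in place of 0.85 for miR-30c and miR-30e. With a quantile target for each surgery 6 pairs passed, and 7 did with background correction and with the processed table. Of the 6 pairs named first, that of miR-30c and miR-30d lost its call with the quantile target for each surgery (adjusted exact p = 0.0590) and without the second replicates (0.0884). Leaving out day 3, 5, 14, or 28 left 0 pairs past the threshold, at a lowest adjusted p of 0.0531, and leaving out day 7 left 8, each at 0.0464. Each of these values comes from the smallest p the test can give on the samples left. Whether pairs passed was then set by how many reached it, which does not show dependence on a day. The sizes of the 6 pairs then ran from 0.66 (miR-30c and miR-30d) to 1.19 (miR-30b and miR-30e), both without day 3.

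**Figure D2:**
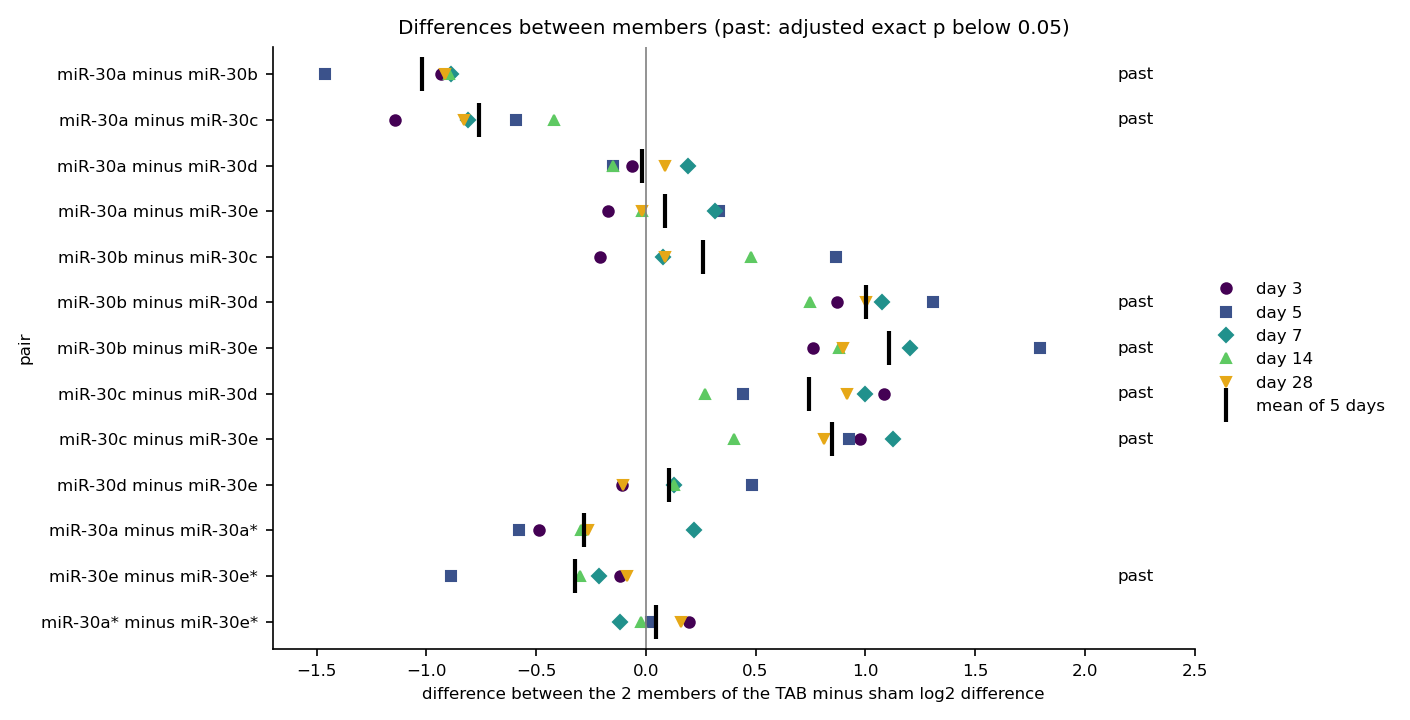
Difference between 2 members of the TAB minus sham log2 difference (horizontal axis) for the 13 pairs (vertical axis). Symbols are the 5 days and black bars their mean, and pairs with an adjusted exact p below 0.05 are marked "past". The 6 pairs of miR-30b or miR-30c with miR-30a, miR-30d, or miR-30e lie on a single side of 0 on all days.

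The strands of 1 hairpin were compared in the same way. miR-30e fell relative to miR-30e* by 0.32 on the log2 scale (exact permutation p = 0.00794, adjusted p = 0.0147), on all 5 days and most at day 5 (-0.89, against -0.09 at day 28). The call was lost without the second replicates (adjusted exact p = 0.0860). For miR-30a against miR-30a* the value was -0.28 (exact permutation p = 0.0317, adjusted p = 0.0516), with day 7 above 0 (0.22) and the other 4 days below. The latter pair passed without quantile normalization (-0.27, adjusted exact p = 0.0258), a value that is the same for any factor shared by an array. The star strands themselves differed by 0.05 (adjusted exact p = 0.490).

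Of the other 4 star strands of the family, 2 were lowered in TAB after quantile normalization, where 21.8% of all miRNAs were lowered. miR-30b* was lowered from 7.25 ± 0.08 to 7.00 ± 0.11 (SD, n = 5; limma, adjusted p = 0.0122), although at the 75th percentile scaling the difference was 0.01. miR-30c-2* was lowered from 7.49 ± 0.06 to 7.22 ± 0.05 (SD, n = 5; adjusted p = 0.00463), with no overlap, and was below 0 in all 18 settings, down to -0.02 at the 75th percentile scaling. miR-30c-1* differed by -0.13 ± 0.12 (SE; adjusted p = 0.405) and miR-30d*, found on 4 of 20 arrays, by 0.02 ± 0.05 (SE; adjusted p = 0.753).

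The distance between strands changed accordingly for miR-30b and miR-30c. The log2 difference between miR-30b and miR-30b* was 1.56 to 2.14 in sham and 3.02 to 3.38 in TAB, a shift of 1.37 (exact permutation p = 0.00794, n = 5 against 5). For miR-30c the shift was 0.99 against miR-30c-1* and 1.12 against miR-30c-2* (each exact permutation p = 0.00794), and TAB exceeded sham on all 5 days in each case. These 3 pairs were chosen after their values had been seen, and the shifts are those after quantile normalization. At the 75th percentile scaling, TAB minus sham was 1.02 for miR-30b and 0.01 for miR-30b*. It was 0.78 for miR-30c, -0.13 for miR-30c-1*, and -0.02 for miR-30c-2*. In TAB, miR-30b* read 1.48 to 2.26 and miR-30c-2* 1.65 to 2.48 times the empty spots, near background. miR-384-5p, which carries the seed of the named strands, was flagged on all 20 arrays and was not tested.

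**Figure D3:**
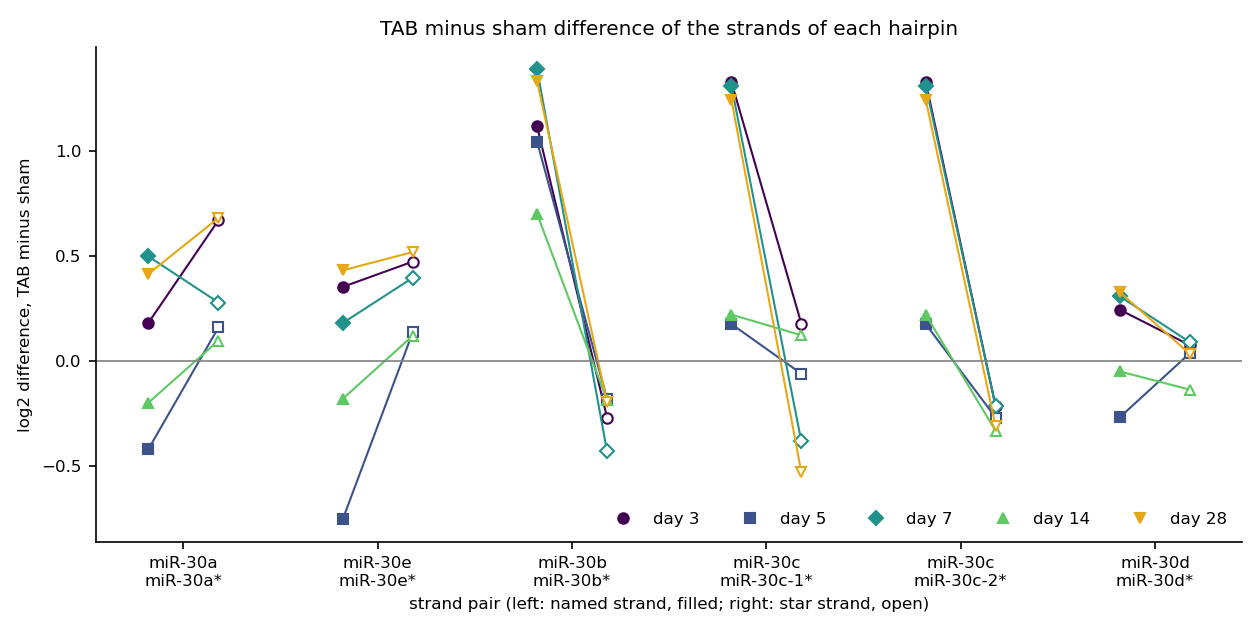
TAB minus sham log2 difference (vertical axis) of the named strand (filled, left) and the star strand (open, right) of each hairpin, joined for each day. Lines fall steeply from miR-30b and from miR-30c at days 3, 7, and 28 to their star strands, and rise from miR-30e to miR-30e* at all 5 days.

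The next comparison asked when the members differed. Each day was tested on the 20 arrays with limma, so that the error is the spread between repeated arrays and the test compares the RNA samples of that day. At day 3, 4 members were raised (17.7% of all miRNAs), namely miR-30c (1.33), miR-30b (1.12), miR-30a* (0.67), and miR-30e* (0.47). At day 5, only miR-30b was raised (1.04; 19.1% of all miRNAs), and miR-30a (-0.42, adjusted p = 0.00293) and miR-30e (-0.75, adjusted p = 0.00359) were lowered, where 20.5% of all miRNAs were lowered. Day 5 was the only day on which a member was lowered.

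At day 7, 4 members were raised again (17.6% of all miRNAs), now with miR-30a (0.50) beside miR-30b (1.39), miR-30c (1.31), and miR-30e* (0.40). At day 14, the call was left to miR-30b (0.70, adjusted p = 0.000400; 12.3% of all miRNAs). At day 28, 5 members were raised (18.1% of all miRNAs): miR-30b (1.33), miR-30c (1.24), miR-30a* (0.68), miR-30e* (0.52), and miR-30a (0.41). After quantile normalization miR-30b was thus called on each day, and miR-30d on none, with values from -0.27 at day 5 to 0.33 at day 28. These calls depend on the scaling. Without scaling, 0 members were raised at days 3, 5, 7, and 14 (1.51% to 4.31% of all miRNAs). At the 75th percentile scaling, all 7 were raised at day 3 (68% of all miRNAs).

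The members were alike in the order of their days. For all 7, the differences at days 5 and 14 were both lower than those at days 3, 7, and 28, an order that 134 of all 928 miRNAs (14.4%) also showed. Without the first replicates, 5 of 7 members showed it (9.91% of all miRNAs), since miR-30b then stood at 1.21 at day 5 against 1.01 at day 3, and miR-30e at -0.0739 at day 14 against -0.0826 at day 7. Without the second replicates all 7 did (15.8%), and miR-30c at day 14 was 0.64 without the first and -0.20 without the second. This order was chosen after the values had been seen, the members share their arrays, and a low day can come from the TAB sample, the sham sample, or both. At day 5, the TAB samples of 6 members, all but miR-30b, were the lowest of their group, and the sham sample of miR-30e was the highest. At day 14, the sham samples of 5 members, all but miR-30d and miR-30e, were the highest of their group, and the TAB sample of miR-30b was the lowest.

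A late minus early contrast (days 14 and 28 against days 3, 5, and 7) called 0 of 928 miRNAs with limma (0%), and at an unadjusted p below 0.05 it held 58 miRNAs and no member. The late minus early values of the members ran from -0.21 ± 0.49 (SE) for miR-30c to 0.20 ± 0.39 (SE) for miR-30e. In an F-test of the interaction of surgery and day on the 20 arrays, added after the data had been seen, 19.9% of all miRNAs and 5 of 7 members passed, with adjusted p from 0.00127 for miR-30a to 0.0330 for miR-30a*. miR-30d (0.0992) and miR-30e* (0.107) did not pass.

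**Figure D4:**
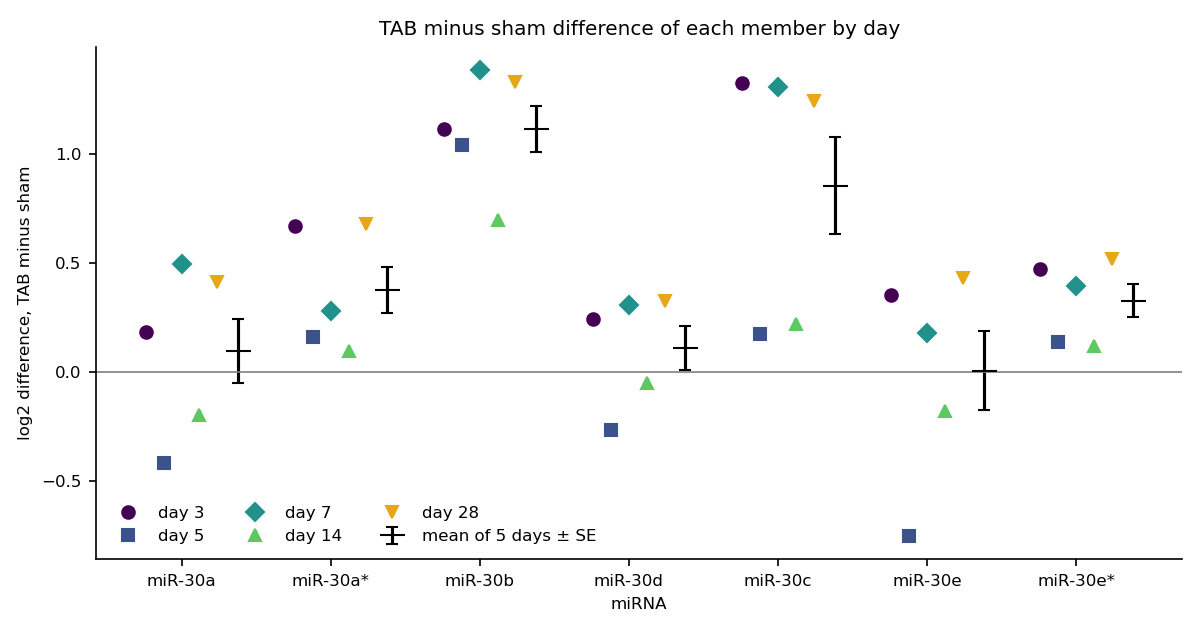
TAB minus sham log2 difference (vertical axis) of each member (horizontal axis). Symbols are the 5 days, and the black bar is the mean over days ± SE. Squares (day 5) and upward triangles (day 14) lie below the other days for every member, and reach -0.75 for miR-30e at day 5.

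How high a member stood depended on the scaling. The median difference of all miRNAs was -0.02 after quantile normalization, 0.40 with scaling of arrays to the 75th percentile, 0.24 with spike-in scaling, and -0.25 both without scaling and with a quantile target for each surgery. Accordingly 6 members were raised at the 75th percentile scaling, where 593 of all 928 miRNAs were raised. With spike-in scaling 2 members and 93 of all miRNAs were raised. The target for each surgery raised 1 member (miR-30b) and 37 of all miRNAs, and lowered miR-30d (-0.28) and 634 of all miRNAs. Without scaling 0 members and 27 of all miRNAs were raised. Relative to the median of all miRNAs, miR-30b, miR-30c, miR-30a*, and miR-30e* stood above it under each of these 5 scalings. miR-30a, miR-30d, and miR-30e were above it after quantile normalization and below it under the other 4. The 75th percentile, spike-in scaling, and no scaling give the same distance from the median, since a factor shared by an array cancels. Those scalings therefore count once.

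**Figure D5:**
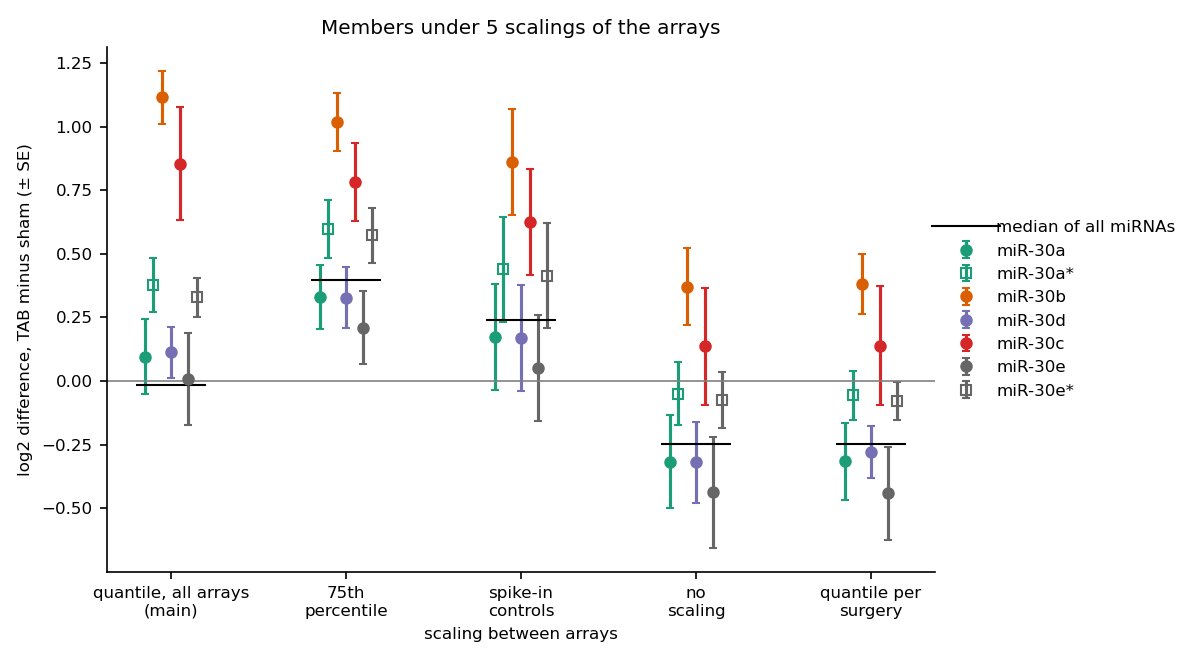
TAB minus sham log2 difference ± SE (vertical axis) of the members under 5 scalings of the arrays (horizontal axis). Filled circles are named strands, open squares star strands, and black bars the median of all 928 miRNAs, which moves from -0.25 to 0.40. The order of miR-30b and miR-30c above the others is the same under every scaling shown.

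Each member was set beside the 2 most alike of 583 miRNAs outside the miR-30 hairpins, by Pearson r over the 10 samples. These correlations describe samples that share a surgery, so a difference between TAB and sham enters r, and the values within TAB and within sham, each over 5 samples, follow it in that order. miR-30b was most like miR-425 (r = 0.994, with 0.827 and 0.936) and miR-20a (0.983, with -0.0351 and 0.849), so that the likeness to miR-20a was not present within TAB. miR-30c was most like miR-27a (0.968, with 0.877 and 0.957) and miR-29c (0.953, with 0.872 and 0.813). miR-30e* also lay near miR-29c (0.973, with 0.935 and 0.922) and miR-99b (0.974, with 0.957 and 0.799). miR-30a* lay near miR-331-3p (0.962, with 0.985 and 0.810) and miR-34a (0.958, with 0.830 and 0.993).

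The members that did not pass the test had other partners. miR-30a was most like miR-29a (0.887, with 0.961 and 0.924) and miR-145 (0.868, with 0.867 and 0.875). miR-30d had the same partners, miR-29a (0.795, with 0.907 and 0.605) and miR-145 (0.804, with 0.953 and 0.683). miR-30e was most like miR-378* (0.809, with 0.893 and 0.812) and miR-181b (0.757, with 0.927 and 0.717). None of these 4 partners passed the test of TAB against sham. Among the members, r was 0.969 for miR-30c and miR-30e* (0.909 and 0.899), 0.906 for miR-30b and miR-30c (0.551 and 0.755), 0.811 for miR-30a and miR-30d (0.826 and 0.768), and 0.112 for miR-30b and miR-30e (0.597 and 0.375).

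Other miRNAs known to act on the message of connective tissue growth factor were examined beside the family. Of 6 such miRNAs, 3 were raised and 0 lowered, where 19.3% of all miRNAs were raised and 21.8% lowered, with a median difference of 0.25 against -0.02 for all miRNAs. miR-19b was raised by 0.77 (adjusted p = 0.00460), miR-18a by 0.41 (0.00488), and miR-19a by 0.41 (0.00224). miR-18a was found on 9 of 10 TAB and 4 of 10 sham arrays. The heart muscle miRNAs miR-133a (0.10, adjusted p = 0.739) and miR-133b (-0.04, adjusted p = 0.893) did not pass, and neither did miR-18b (0.03, adjusted p = 0.854).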

How the data were processed

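The deposited raw file held the Cy5 intensity of 4608 spots on each of 20 Mouse & Rat miRNA OneArray slides, read by the authors' array provider with GenePix and not background-subtracted, together with deposited GenePix flags, a score that is negative for spots not found. The deposited processed table gave 1 intensity for each miRNA after the authors' filter on flags, median over spots, and quantile normalization within technical replicates, and served as an alternative. File columns of other samples numbered 0. Surgery, day and replicate came from array titles. For the TAB day 14 arrays a condition label says day 15, and the title was used.

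For each of 1086 mouse probes the median of its 3 spots was taken, and 158 probes flagged negative on every spot of every array were removed. Values were log2-transformed and quantile-normalized over the 20 arrays with limma 3.58.1 in R 4.3.3, and the 2 arrays of a surgery and day were averaged. TAB was compared with sham with limma (lmFit, eBayes) with day as a block (4 residual degrees of freedom). Each day was tested on the 20 arrays (10 residual degrees of freedom), and late against early on the 5 day differences (3 residual degrees of freedom). Pairs of members were compared by an exact permutation test. Tests were two-sided, p-values were adjusted by the Benjamini-Hochberg method over 928 miRNAs (or 13 pairs), and the threshold was 0.05. The fit was tested on simulated data. Arrays hold no counts of molecules, and precision is limited by their number and, for the surgery, by 5 samples each. Since nothing says that samples came from separate hearts, p-values measure the spread between these samples.

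The miRNAs named were the members, the other probes of the miR-30 hairpins or seed, the 2 most alike miRNAs of each member among those found on at least 10 arrays, and at most 4 of each list (partners on connective tissue growth factor and markers of heart muscle, white and red blood cells, vessels, fibroblasts, liver, brain and epithelium). miR-18b and miR-133b go beyond this limit because the whole first list is given. The members and lists were chosen with earlier results of these data known. Alternatives were other scalings, normexp background correction (offset 50), the mean of spots, no filter, the processed table, leaving out a replicate or a day, no day term, and the 20 arrays with a replicate block or a random block. Spike-in scaling, the interaction test and 3 strand pairs were added after the data had been seen.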

Additional observations from a re-analysis of the deposited data

Results flagged for a closer look

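For 5 members the TAB minus sham difference differed between days in an F-test of the interaction of surgery and day over the 20 arrays (limma, adjusted over 928 miRNAs, of which 19.9% passed). miR-30a (adjusted p = 0.00127) ran from -0.42 at day 5 to 0.50 at day 7. miR-30e (adjusted p = 0.0150) ran from -0.75 at day 5 to 0.43 at day 28. miR-30b (adjusted p = 0.0269) ran from 0.70 at day 14 to 1.39 at day 7. miR-30c (adjusted p = 0.0291) ran from 0.18 at day 5 to 1.33 at day 3. miR-30a* (adjusted p = 0.0330) ran from 0.10 at day 14 to 0.68 at day 28. Each day rests on the RNA of that day, since the error comes from repeated arrays. None of the 14 groups of 5 samples formed by a member and a surgery held a sample that stood apart by Dixon's test.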

How the results depend on the processing

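Over the 5 days, 4 members were raised and 0 lowered. This count was 0 raised without scaling, 1 raised and 1 lowered (miR-30d) with a quantile target per surgery, and 2 raised with spike-in scaling, which was added after the data had been seen. It was 2 to 4 when a replicate was left out and 1 to 4 when a day was left out. Among all miRNAs, 179 were raised and 202 lowered (47.0% of the calls raised). The numbers were 593 and 110 (84.4%) at the 75th percentile scaling, 592 and 113 (84.0%) in the processed table, 27 and 500 (5.12%) without scaling, 37 and 634 (5.51%) with the target per surgery, and 93 and 86 (52.0%) with spike-in scaling. Leaving out day 3 gave 110 and 115, and leaving out day 7 gave 111 and 127. The lowered count was 132 when day 5 was left out and 128 when day 28 was.

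Directions turned for miR-30a* (-0.0497) and miR-30e* (-0.0737) without scaling. With the target per surgery, they turned for miR-30a* (-0.0559), miR-30e* (-0.0784), miR-30d (-0.28), and miR-30d* (-0.17). For miR-30b* the difference was 0.0108 at the 75th percentile scaling and 0.0100 in the processed table. Members that had not passed the test also changed sign, miR-30a (-0.316), miR-30d (-0.319), miR-30e (-0.437), and the relative miR-30d* (-0.166) without scaling, and miR-30a (-0.316) and miR-30e (-0.442) with the target per surgery. The causes were not tested.

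Of the 13 pairs, 7 passed. When a day was left out 0 to 8 passed, a count set by the smallest p that fewer samples allow. When a replicate was left out 5 to 8 passed, and 0 when surgery labels were exchanged only within days, where 32 splits allow no p below 0.0625.

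On single days, the 75th percentile scaling gave 7 members raised at day 3 (68% of all miRNAs) and, at day 5, 3 raised (61.5%) and 1 lowered (10.3%). Without scaling, 0 were raised at days 3, 5, 7, and 14, 2 at day 28 (9.27%), and 6 were lowered at day 5 (66.7%). The rule of 2 standard deviations of all ratios of a day gave 2 raised at day 3, 2 at day 7, 0 at day 14, 2 at day 28, and 0 lowered at day 5. At day 5 miR-30b stayed raised (1.04, where the standard deviation of all ratios was 0.505). The share of all miRNAs past that rule is not given here, so these counts say nothing about the members beside other miRNAs. The late minus early count of 0 members was the same under the other scalings, the linear trend, and each left-out day, and the interaction test called 5.

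Replicate numbers are shared between groups only as numbers: deviations of same-numbered arrays correlated from -0.28 to 0.42. With the replicate block on the 20 arrays, 4 members were raised and 0 lowered, and 260 miRNAs were raised and 291 lowered, and on each day the block left the counts of members as they were. miR-30a* and miR-30e*, at 1.86 to 3.94 times the empty spots, are the members nearest to background, and differences of their size are the least secure.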
